A study of Mus musculus with 12 samples.

Results

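The histone modifying enzymes measured here were 68 genes, taken from 11639 genes with 1 symbol that reached a mean log2 intensity of at least 5 over the 12 arrays. They were chosen by name, as every gene of the Kmt, Kdm, Setd, Hdac, Sirt, Kat, Prmt, Ezh and Ehmt series together with Dot1l and Ep300, and each gene was represented by the probe set with the highest mean. The names matched 74 genes on 176 probe sets, and 122 probe sets of the 68 genes reached the level set. Ezh2 (mean log2 intensity 4.64), Prmt6 (4.13), Sirt4 (3.76), Hdac10 (3.39), Sirt6 (2.87) and Kdm4d (2.35) did not reach it, while Hdac8 (5.05) and Kdm8 (5.28) lay just above it. Kmt2a gave the group its name because earlier results of the same arrays had shown its level changing over the day, so its values stand below as a description, without a test.

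Histone modifying enzymes add or remove small chemical groups on the tails and cores of histones and so set how open chromatin is and how readily genes are transcribed. Methyltransferases of the KMT2 and SETD1 families place methyl groups on lysine 4 of histone H3 at promoters and enhancers, and other families methylate lysines 9, 27, 36 and 79. Demethylases of the KDM family remove many of these marks, and acetyltransferases and deacetylases act in opposition on lysine acetylation. Several are known partners of the circadian clock: the methyltransferase KMT2A and the acetyltransferases EP300 and KAT2B work with the activators CLOCK and BMAL1, HDAC3 works with the REV-ERB repressors, and SIRT1 deacetylates clock proteins.

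Prefrontal cortex was taken from C57BL/6J mice, 10 weeks old on arrival and housed for 2 further weeks, that were entrained to 12 hours of light and 12 hours of dark, at Zeitgeber time (ZT, hours after lights on) 3 and 9 in the light and 15 and 21 in the dark. Each group held 3 mice, with 1 mouse on each Affymetrix Mouse430_v2 array, and no mouse carried an allele or received a treatment. Dissection in the dark phase was done under red light, and the labels do not give the sex of the animals. All 4 groups came from a light-dark cycle, so a response to light, to sleep and to the internal clock cannot be told apart.

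The arrays correlated pairwise at 0.969 to 0.994, and no 2 of them held identical values. The first principal component took 39.1% of the variance, and the arrays of ZT9 mouse 1, ZT15 mouse 3 and ZT21 mouse 3 were highest on it. The median log2 intensity of the 24075 tested probe sets was 7.76 to 7.79 at ZT3 and 7.82 to 7.91 at ZT15, so counts that rest on ZT3 being low are also given with the arrays brought to a common scale. Per2, a core clock gene, moved from a mean of 6.28 at ZT3 to 9.35 at ZT15 (adjusted p = 0.000376, limma F-test with Benjamini-Hochberg adjustment over the tested probe sets) and shows what a strong daily change looked like on these arrays. All 5 neuronal markers reached a mean of at least 5, with a summed log2 intensity of 15.23 to 15.67, and the 3 olfactory bulb markers Eomes, Tbx21 and Doc2g were below 5.

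Kmt2a, also known as Mll1, was higher at ZT15 than at any other time. The representative probe set gave log2 intensities of 9.10, 9.07 and 9.11 at ZT3, 9.00, 9.29 and 9.04 at ZT9, 9.73, 9.70 and 9.65 at ZT15 and 8.97, 9.00 and 9.19 at ZT21. All 3 mice at ZT15 lay above the 9 mice of the other times, and those 9 fell within 8.97 to 9.29. The means were 9.09 ± 0.02 (SD, n = 3) at ZT3, 9.11 ± 0.16 at ZT9, 9.69 ± 0.04 at ZT15 and 9.05 ± 0.12 at ZT21, a span of 0.64 on the log2 scale or 1.56-fold. In bulk tissue, fewer cells of a type and less RNA per cell cannot be told apart, here and in what follows.

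The second Kmt2a probe set gave 7.05, 7.07 and 6.64 at ZT3, 7.16, 7.26 and 7.17 at ZT9, 7.55, 7.53 and 7.56 at ZT15 and 7.05, 7.11 and 7.29 at ZT21. It was again highest in the 3 mice of ZT15, with the means spanning 0.63 from ZT3 to ZT15, but its lowest time was ZT3 and its ZT9 mean of 7.20 lay between ZT3 and ZT15, while the representative probe set was lowest at ZT21. The pair correlated at r = 0.80 over the 12 arrays, and both are annotated to the same transcript record, so they are repeated readings of 1 gene and not independent genes.

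The bases just before the Kmt2a and Sirt1 starts are shown because Kmt2a names the group and because Sirt1 is the clock-linked enzyme that, next to Kmt2a, had an adjusted p under 0.20 for ZT15 minus ZT3. They are the 250 bases before the annotated start in RefSeq, build GRCm38.p6, read on the minus strand of chr9:44881290-44881539 for Kmt2a and of chr10:63339036-63339285 for Sirt1. Capitals mark matches on either strand to an E-box (CACGTG, the site of CLOCK and BMAL1), a D-box (TTATGTAA or TTACGTAA), a cyclic AMP response element (TGACGTCA) or a GC box (GGGCGG).
Kmt2a promoter: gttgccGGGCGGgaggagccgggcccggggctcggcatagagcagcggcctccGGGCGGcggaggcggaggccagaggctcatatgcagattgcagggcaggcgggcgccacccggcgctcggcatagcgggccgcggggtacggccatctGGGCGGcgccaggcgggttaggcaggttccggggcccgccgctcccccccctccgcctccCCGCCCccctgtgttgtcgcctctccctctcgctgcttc
Sirt1 promoter: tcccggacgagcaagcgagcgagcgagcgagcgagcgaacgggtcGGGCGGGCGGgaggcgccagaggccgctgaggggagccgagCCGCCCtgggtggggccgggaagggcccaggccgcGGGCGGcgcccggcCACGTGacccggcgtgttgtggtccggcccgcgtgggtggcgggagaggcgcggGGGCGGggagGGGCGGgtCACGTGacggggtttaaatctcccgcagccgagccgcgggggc
The Kmt2a stretch held 4 GC boxes and no match to the other 3 motifs. The Sirt1 stretch held 2 E-boxes, starting 115 and 43 bases before the start, and 6 GC boxes, of which 1 pair overlapped. Of 32851 promoter stretches of the same length, 6.02% held an E-box, 0.931% a D-box, 1.55% a cyclic AMP response element and 32.7% a GC box. The 57 enzymes with an entry had 78 stretches, of which 8 held an E-box, 0 a D-box, 1 a cyclic AMP response element and 50 a GC box. Counted by gene, which is not the unit of the shares above, an E-box was found for 7 (Ehmt2, Kat5, Kdm4c, Kdm6a, Prmt1, Prmt3 and Sirt1). A cyclic AMP response element was found for Prmt9, a D-box for 0 and a GC box for 39. A match is a string of letters and says nothing about binding.

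**Figure D1:**
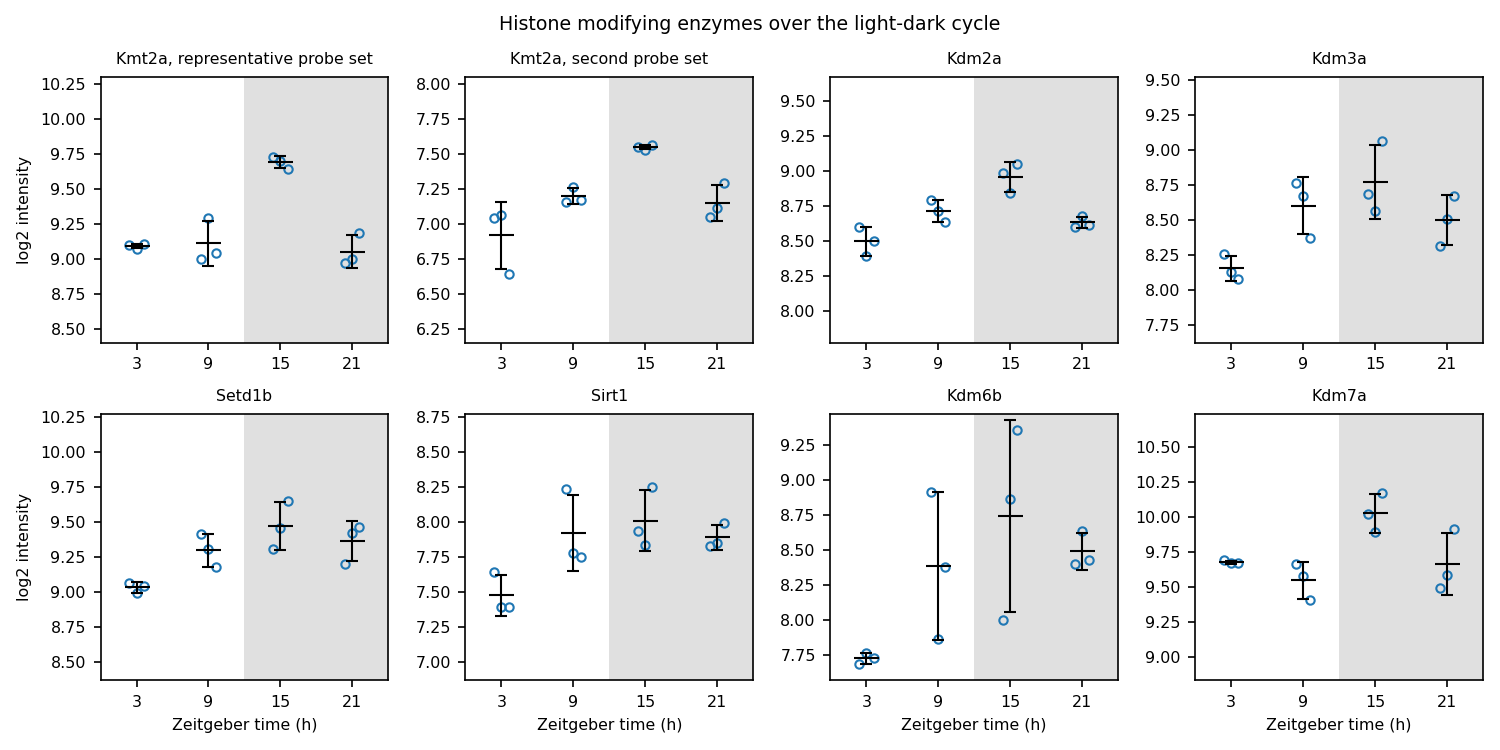
Log2 intensity (vertical axis, a span of equal height in every panel) against Zeitgeber time in hours for both Kmt2a probe sets and for Kdm2a, Kdm3a, Setd1b, Sirt1, Kdm6b and Kdm7a. Circles are single mice, bars are mean ± SD of 3 mice, and the hours of darkness are shaded grey; both Kmt2a panels have all 3 mice of ZT15 on top, and Kdm6b shows a wide spread at ZT9 and ZT15.

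Over the 4 times, Kdm2a was the single enzyme of the 67 other than Kmt2a to pass the F-test. Kdm2a is a demethylase of lysine 36 of histone H3 that binds unmethylated CpG islands. Kmt2a and Kdm2a together make 2 of 68 members at an adjusted p under 0.20 in limma, where 2.01% of all tested probe sets passed, and 15 of 68 had an unadjusted p under 0.05, where 15.6% did. Without Kmt2a, which was chosen for its change on these arrays, the counts were 1 and 14 of 67. The share past the adjusted threshold was close to that of all probe sets, and so was the size of the changes: the span between highest and lowest mean had a median of 0.27 over the 68 members and 0.28 over the tested probe sets.

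Early night was set against early day, and 4 enzymes other than Kmt2a were higher at night. ZT15 was higher than ZT3 for 5 of 68 members at an adjusted p under 0.20, where 2.36% of the tested probe sets were, and lower for 0 of 68, where 0.282% were. The 5 were Kmt2a, Kdm2a, Setd1b, Kdm3a and Sirt1, which leaves 4 of 67 without Kmt2a. At an unadjusted p under 0.05, 19 were higher, 18 without Kmt2a (9.99% of the tested probe sets), and 1, Kdm5d, was lower (2.63%). Ordinary statistics without moderation called 2 higher and 0 lower. All 5 were also called with each array centred on its median and after quantile normalization. Without the array of ZT3 mouse 2 the count was 0, without that of ZT3 mouse 3 or of ZT15 mouse 3 it was 1 (Kmt2a), and with 3 arrays left out together (ZT9 mouse 1, ZT15 mouse 3 and ZT21 mouse 3) it was 3 (Kmt2a, Kdm2a and Sirt1).

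Taken mouse by mouse, the 3 values of ZT15 all lay above the 3 of ZT3 for 24 of 68 enzymes, where 15.3% of the tested probe sets did so. Without Kmt2a, which was chosen for its change on these arrays, the count was 23 of 67. With arrays centred on their medians it was 19 of 68 against 9.42% of the tested probe sets. After quantile normalization it was 19 against 10.1%, and both of these counts include Kmt2a. The 3 values of ZT3 lay below all 9 others for 10 of 68 (Setd1a, Setd1b, Prmt2, Kdm2a, Kdm3a, Kdm6b, Hdac5, Hdac11, Sirt1 and Kat2a), where 3.24% of the tested probe sets did, and for 4 after centring (Setd1b, Kdm3a, Hdac11 and Sirt1), where 2.02% did. The 3 values of ZT15 lay above all 9 others for Kmt2a and Kdm2a, where 1.2% of the tested probe sets did. Without Kmt2a that is 1 of 67, and nothing is read from Kmt2a in this count or the next ones. With centred arrays they did so for Kmt2a, Kdm2a, Kdm7a and Kat2b (1.28% of the tested probe sets). After quantile normalization Hdac8 was added to these (1.25%).

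The median difference between ZT15 and ZT3 was 0.17 over the 68 members, 0.07 over genes with 1 symbol and 0.05 over the tested probe sets. With centred arrays it was 0.09 over the members and -0.03 over the tested probe sets. It was above 0 for 59 of 68 members, 58 without Kmt2a (60.6% of the tested probe sets), and for 45 with centred arrays (43.9%). Some marker lists did not overlap between the same groups and others did. The summed log2 intensity of the choroid plexus list was 9.40 to 10.99 at ZT3 and 11.15 to 14.20 at ZT15 (2 of its 4 genes, Folr1 and Kl, were below 5). That of the blood list overlapped, with 5.28 to 5.91 at ZT3 and 5.88 to 6.56 at ZT15 (2 of its 3 genes were on the array, Hba-a1 below 5). The endothelial list went the other way from the choroid plexus list, from 9.32 to 9.47 at ZT3 to 8.94 to 9.28 at ZT15 (2 of its 3 genes were on the array). It read 8.56 to 9.13 at ZT9 and 9.58 to 9.76 at ZT21. Its gene Cldn5, a tight junction protein, was the single marker past the F-test, with a span of 1.06 over all 4 times (limma adjusted p = 0.0572). The oligodendrocyte list was 14.35 to 14.37 at ZT3 and 14.40 to 14.57 at ZT15 (3 of its 4 genes were on the array). The neuronal list was 15.37 to 15.44 at ZT3 and 15.43 to 15.55 at ZT15, and the astrocyte, microglial and striatal lists overlapped between these times as well. The part of these in the enzymes' differences was not tested.

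Dark against light, with ZT15 and ZT21 set against ZT3 and ZT9, gave 0 calls among the 67 enzymes other than Kmt2a. Kmt2a, chosen for its change on these arrays, was the 1 member higher in the dark at an adjusted p under 0.20, where 1.89% of the tested probe sets were, and 0 were lower, where 0.835% were. At an unadjusted p under 0.05, 16 members were higher, 15 without Kmt2a (8.88% of the tested probe sets), and Kdm5d was the 1 lower (6.63%). Ordinary statistics called 0 in either direction. With centred arrays 7 members were higher and 0 lower (4.93% and 4.65% of the tested probe sets), and after quantile normalization 11 were higher and 1, Setd2, was lower (6.33% and 5.76%). Which of the 2 contrasts called more members turned with the processing: dark minus light called more than ZT15 minus ZT3 after quantile normalization (12 against 7), with centring (7 against 5), with array weights (26 against 22), without ZT9 mouse 1 (19 against 9) and with the 3 arrays left out (12 against 3). The median dark minus light difference was 0.086 over the members, 0.02 over genes with 1 symbol and 0.01 over the tested probe sets. Between mice of the same time, the members' median per array had a pooled SD of 0.0912. That is a spread of single mice and not the error of a difference between group means. The dark minus light difference was above 0 for 49 of 68 members, 48 without Kmt2a, where 52.3% of the tested probe sets were above 0.

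Within the night, Kmt2a was the 1 member lower at ZT21 than at ZT15 (0.108% of the tested probe sets were), and 0 were higher (0.0789%). That count holds the gene chosen for this pattern and nothing is read from it. At an unadjusted p under 0.05, Kmt2a, Dot1l, Prmt9, Kdm2a and Kdm7a were lower (6.47% of the tested probe sets) and 0 were higher (3.3%), and ordinary statistics called 1 lower and 0 higher. ZT21 against ZT9 gave 0 of 68 members in either direction in limma (0.0457% of the tested probe sets were higher and 0.0125% lower), and ordinary statistics also called 0. At an unadjusted p under 0.05, Prmt7 and Kat5 were higher (4.19% of the tested probe sets) and Setd2, Setd3 and Prmt9 were lower (9.15%). The difference between the early (ZT15 minus ZT3) and the late pair (ZT21 minus ZT9), tested as an interaction, passed for 0 of 68 members in limma (0.0582% of the tested probe sets higher and 0.0125% lower) and without moderation. Before adjustment, 9 members, 8 without Kmt2a, had p under 0.05 with the early difference the higher (8.53% of the tested probe sets). With it the lower there were 0 (2.27%).

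**Figure D2:**
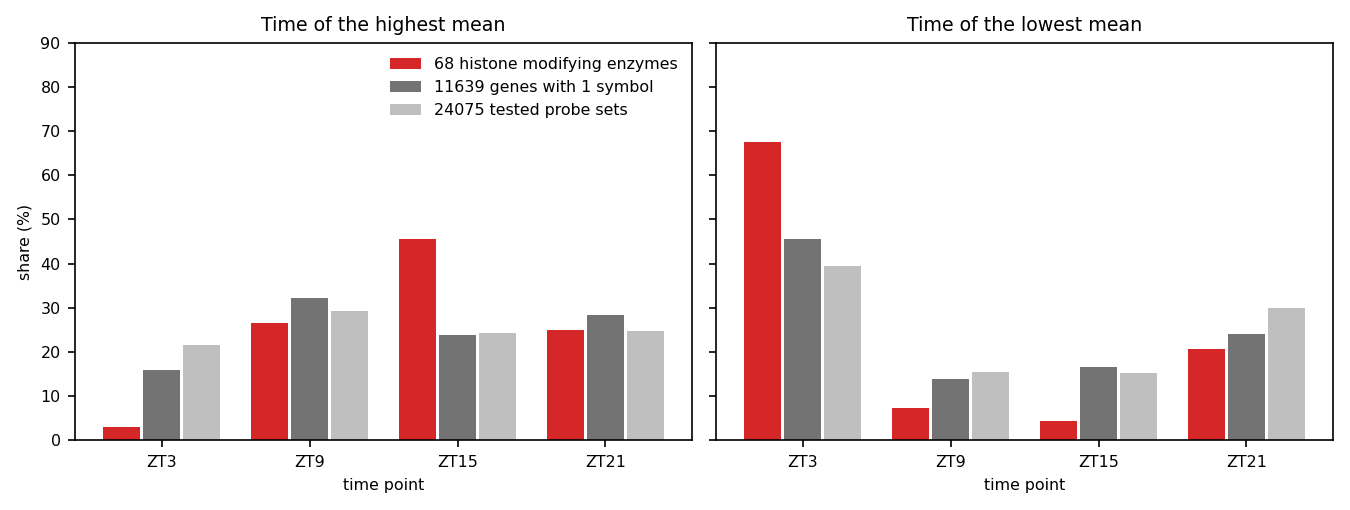
Share in percent (vertical axis) of the 68 enzymes, of 11639 genes with 1 symbol and of 24075 tested probe sets that had their highest (left) or lowest (right) mean at each of the 4 times. More of the enzymes were lowest at ZT3 (46 of 68) and highest at ZT15 (31 of 68) than of either background; after quantile normalization these counts were 29 and 23.

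By time of day, 31 of 68 members had their highest mean at ZT15 (24.3% of the tested probe sets and 23.8% of genes with 1 symbol), 18 at ZT9 (29.3% of the tested probe sets), 17 at ZT21 (24.7%) and 2 at ZT3 (21.6%), these being Kdm5d and Kat7. Without Kmt2a, 30 of 67 were highest at ZT15. The lowest mean was at ZT3 for 46 members (39.4% of the tested probe sets and 45.5% of genes with 1 symbol), at ZT21 for 14 (29.9% of the tested probe sets), at ZT9 for 5 (15.4%) and at ZT15 for 3 (15.2%). The scale of the arrays moved these counts: with centred arrays 28 were lowest at ZT3 (26.0% of the tested probe sets) and 25 highest at ZT15 (18.4%), and after quantile normalization 29 (27.8%) and 23 (19.2%). The members exceeded all tested probe sets in both counts under each of the 3 scales. Genes with 1 symbol were counted on the deposited scale alone.

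**Figure D3:**
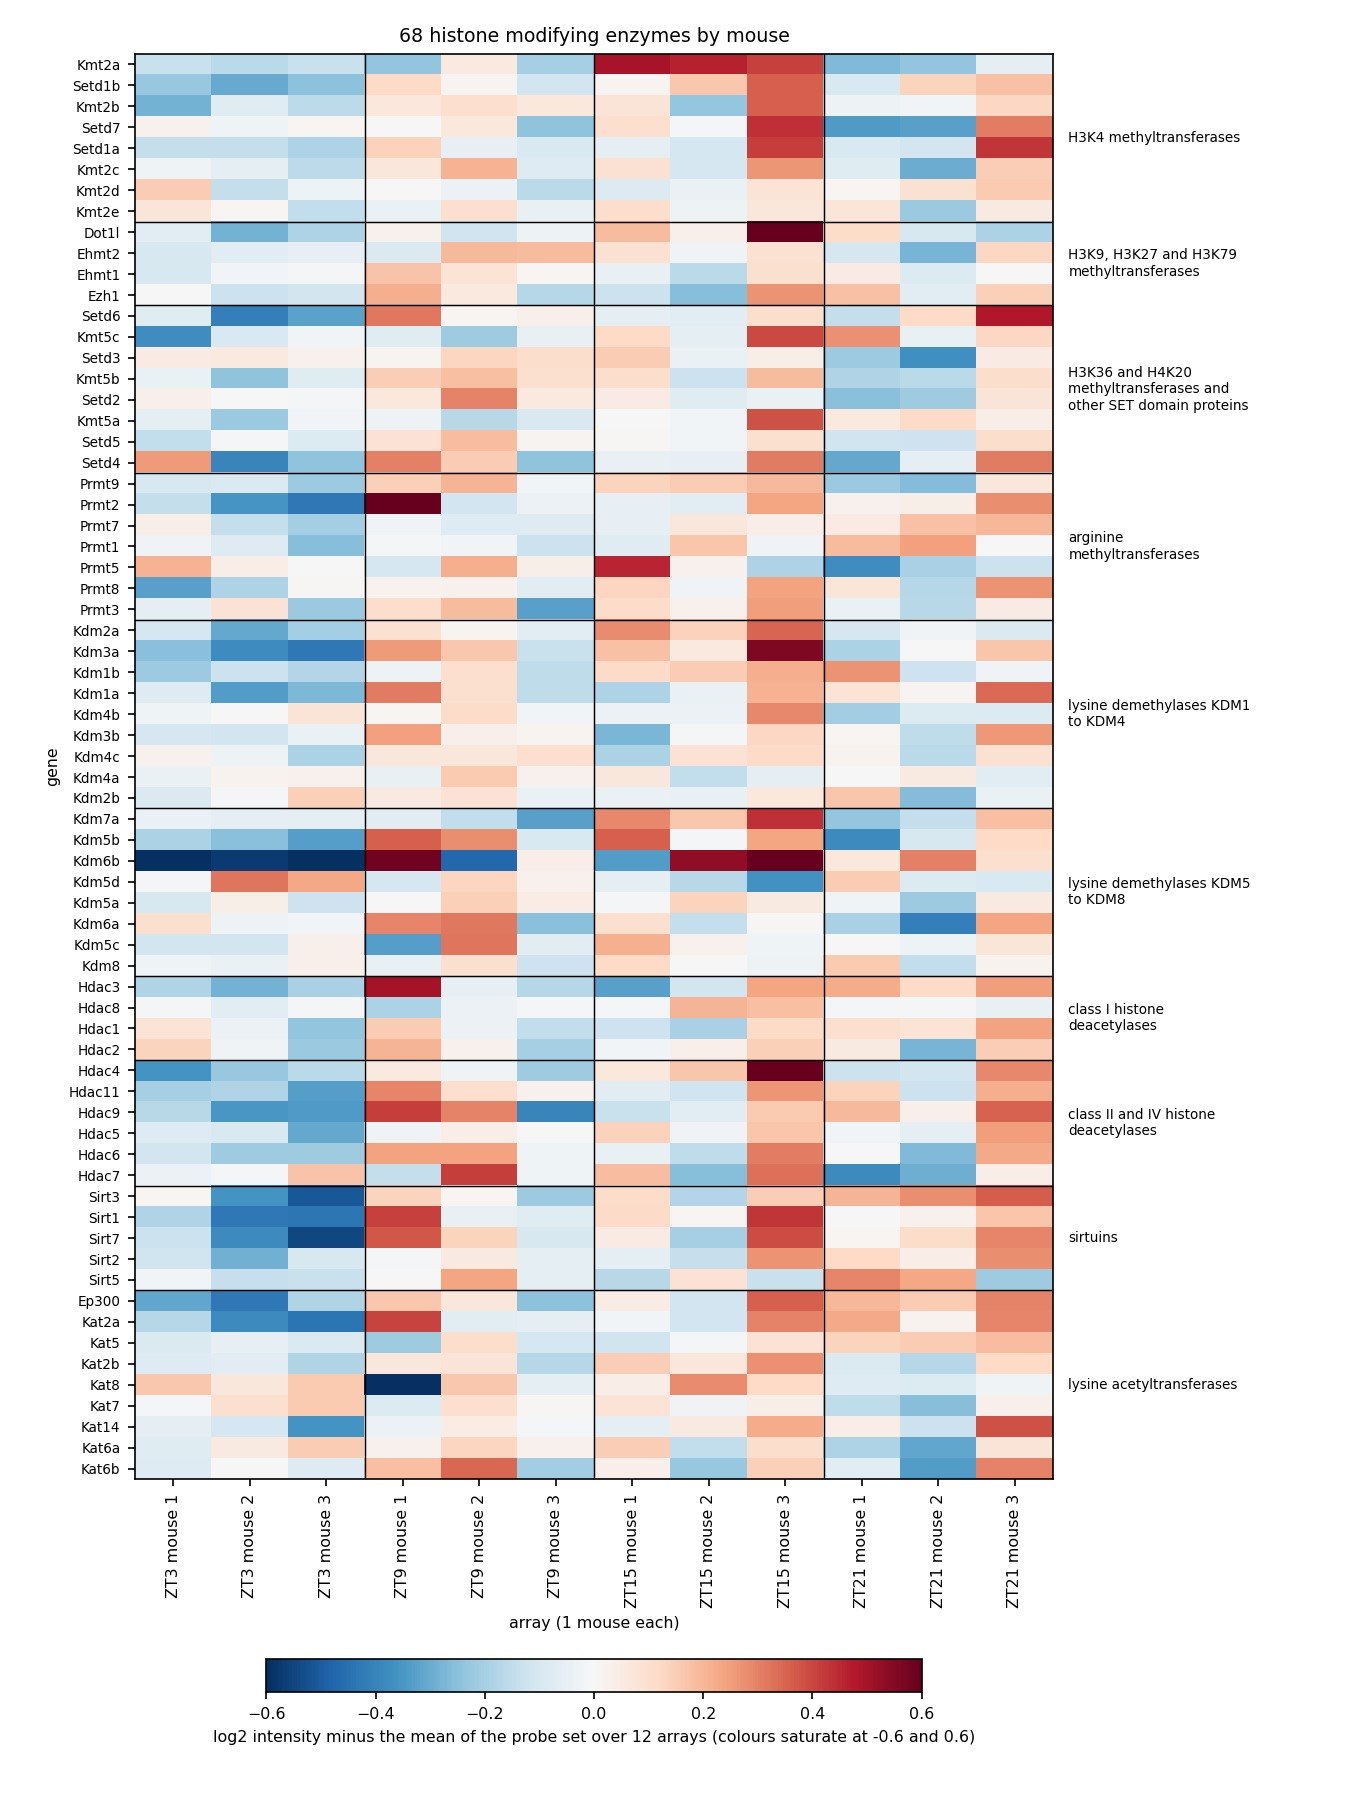
Log2 intensity of each of the 68 enzymes (rows, by class) in each mouse (columns), shown as the difference from the mean of the probe set over the 12 arrays; colours saturate at -0.6 and 0.6. Kmt2a is deep red in the 3 mice of ZT15 and pale or blue elsewhere, while many enzymes are red together in ZT9 mouse 1, ZT15 mouse 3 and ZT21 mouse 3 and blue in the mice of ZT3.

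Among the 8 methyltransferases of lysine 4, Setd1b was called higher at ZT15 than at ZT3, where 2.36% of the tested probe sets were. Kmt2a was higher as well, but it was chosen for its change on these arrays and its call is not read as a result. The other KMT2 genes gave 0 calls. Setd1b, a catalytic subunit of a COMPASS complex that deposits most of the trimethyl mark, gave 9.07, 8.99 and 9.05 at ZT3, 9.41, 9.31 and 9.18 at ZT9, 9.31, 9.46 and 9.65 at ZT15 and 9.20, 9.42 and 9.47 at ZT21. The 3 mice at ZT3 were the lowest 3 of the 12, and ZT15 did not separate from ZT9 or ZT21. ZT15 exceeded ZT3 by 0.44 ± 0.11 (SE, n = 3 and 3; limma adjusted p = 0.150), while the F-test over the 4 times gave an adjusted p of 0.256. Kmt2b, the closest relative of Kmt2a, went from 7.95 ± 0.11 (SD, n = 3) at ZT3 to 8.20 ± 0.02 at ZT9 and 8.19 ± 0.30 at ZT15 (limma F-test adjusted p = 0.514). Kmt2c, an enhancer methyltransferase linked to the clock, spanned 0.17 between highest and lowest mean (limma adjusted p = 0.668), Kmt2d spanned 0.15, and Kmt2e, which lacks clear methyltransferase activity, spanned 0.08. Other probe sets of Kmt2c spanned up to 0.44 and of Kmt2e up to 0.62, the widest of both being highest at ZT21 (limma adjusted p = 0.462 and 0.294). The remaining members of the class, Setd7 and Setd1a, spanned 0.30 and 0.24 (limma adjusted p = 0.613 and 0.664).

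Of the 4 methyltransferases of lysines 9, 27 and 79, 0 passed the F-test and Dot1l alone had an unadjusted p under 0.05. Dot1l, the sole known methyltransferase of lysine 79, gave 7.93, 7.71 and 7.80 at ZT3, 8.02, 7.87 and 7.96 at ZT9, 8.18, 8.02 and 8.61 at ZT15 and 8.10, 7.90 and 7.80 at ZT21. All 3 mice of ZT15 lay above those of ZT3 and, by a margin under 0.01, above those of ZT9, with ZT15 mouse 3 highest, and ZT15 overlapped with ZT21. The span was 0.46 (limma adjusted p = 0.309), and a second Dot1l probe set spanned 0.44 with the same highest time (limma adjusted p = 0.231). Ehmt2 and Ehmt1, which form the dimer that dimethylates lysine 9, spanned 0.19 and 0.13 and were highest at ZT9 (limma adjusted p = 0.578 and 0.683). Ezh1, a catalytic subunit of the Polycomb complex PRC2, spanned 0.16 (limma adjusted p = 0.799).

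The 8 H3K36 and H4K20 methyltransferases and other SET domain proteins gave 0 calls in limma and 0 at an unadjusted p under 0.05. Setd6, which methylates non-histone proteins such as RELA, was lowest at ZT3, at 7.51 ± 0.18 (SD, n = 3), and highest at ZT21, at 7.93 ± 0.31 (limma F-test adjusted p = 0.346). A second Setd6 probe set did not repeat it: it spanned 0.04, was highest at ZT9 and correlated with the first at r = 0.05. Kmt5c, which trimethylates H4K20, spanned 0.31 with its highest mean at ZT15 (limma adjusted p = 0.373). Setd3, an actin histidine methyltransferase, had its lowest mean at ZT21, at 9.90 ± 0.21, against 10.12 to 10.16 at the other 3 times (limma adjusted p = 0.390). The other 5 spanned 0.18 to 0.27.

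Among the 7 arginine methyltransferases 0 passed the F-test. Prmt9, which acts on splicing factors, gave 8.20, 8.21 and 8.08 at ZT3, 8.44, 8.50 and 8.28 at ZT9, 8.43, 8.45 and 8.49 at ZT15 and 8.08, 8.04 and 8.36 at ZT21. ZT9 and ZT15 were above ZT3 in every mouse, and ZT21 was low in 2 of 3 mice. The span was 0.30 (limma adjusted p = 0.280, unadjusted p = 0.0246), and Prmt9 was the member of this class with an unadjusted p under 0.05. Prmt2 was lowest at ZT3, at 9.52 ± 0.15 (SD, n = 3), and its ZT9 mean of 9.98 ± 0.40 was raised by mouse 1, which read 10.44 against 9.71 and 9.79 in the other 2. Prmt7 was highest at ZT21, at 8.19 ± 0.08 (limma adjusted p = 0.364). The class gave 6 of 7 genes above 0 in dark minus light, with a median difference of 0.15, where 52.3% of the tested probe sets were above 0. This was not particular to the class. The count was 8 of 8 for the methyltransferases of lysine 4, 5 of 5 for the sirtuins and 4 of 9 for the demethylases KDM1 to KDM4.

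Among the 17 demethylases, Kdm2a passed the F-test, and Kdm2a and Kdm3a were higher at ZT15 than at ZT3. Kdm2a gave 8.60, 8.39 and 8.50 at ZT3, 8.79, 8.72 and 8.64 at ZT9, 8.98, 8.84 and 9.05 at ZT15 and 8.60, 8.68 and 8.61 at ZT21. The 3 mice of ZT15 were the highest 3 of the 12, and ZT3 lay below the other 9. The span was 0.46 ± 0.09 (SE), a 1.38-fold difference between ZT15 and ZT3 (limma F-test adjusted p = 0.181, and for ZT15 minus ZT3 adjusted p = 0.0675). The call of the F-test was lost without moderation, with the replicate number as a block and with any of 9 single arrays left out (all 3 of ZT3, ZT9 mouse 2, all 3 of ZT15, and ZT21 mice 1 and 2), where the ZT15 minus ZT3 difference stayed between 0.41 and 0.52. The other Kdm2a probe sets did not repeat it: 1 was highest at ZT9, with a span of 0.39, and the other spanned 0.08.

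Kdm3a, a demethylase of lysine 9 that is induced under low oxygen, gave 8.25, 8.13 and 8.08 at ZT3, 8.76, 8.67 and 8.37 at ZT9, 8.68, 8.56 and 9.06 at ZT15 and 8.31, 8.50 and 8.67 at ZT21. The mice of ZT3 lay below the other 9, and the other 3 times overlapped. ZT15 exceeded ZT3 by 0.62 ± 0.15 (SE; limma adjusted p = 0.128), and the F-test gave an adjusted p of 0.238. Kdm1b and Kdm1a, the flavin-dependent demethylases of lysine 4, spanned 0.34 and 0.37 (limma adjusted p = 0.338 and 0.387), with Kdm1b highest at ZT15 and Kdm1a at ZT21. The other 5 members from Kdm2b to Kdm4c spanned 0.08 to 0.20.

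Kdm6b, a demethylase of lysine 27 of histone H3 that is induced by inflammatory and neuronal stimuli, spanned more than any other member. It gave 7.69, 7.77 and 7.73 at ZT3, 8.92, 7.87 and 8.38 at ZT9, 8.00, 8.87 and 9.36 at ZT15 and 8.40, 8.64 and 8.43 at ZT21. The mice of ZT3 read within 7.69 to 7.77 and lay below all others, whereas the mice of ZT15 ran from 8.00 to 9.36. The means ran from 7.73 ± 0.04 (SD, n = 3) at ZT3 to 8.74 ± 0.69 at ZT15, a 2.02-fold span that did not pass the F-test (limma adjusted p = 0.295). A second Kdm6b probe set spanned 0.92 between the same times (limma adjusted p = 0.288).

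Kdm7a, a demethylase of lysines 9 and 27 that reads the trimethyl mark on lysine 4, gave 9.69, 9.67 and 9.67 at ZT3, 9.66, 9.58 and 9.40 at ZT9, 10.02, 9.89 and 10.17 at ZT15 and 9.49, 9.59 and 9.91 at ZT21. ZT15 was above ZT3 and ZT9 in every mouse and overlapped with ZT21, where mouse 3 read 9.91. The representative probe set spanned 0.48 (limma adjusted p = 0.248), and a second one, correlated with it at r = 0.91, spanned 0.55 from ZT21 to ZT15 (limma adjusted p = 0.197). The remaining Kdm7a probe set was highest at ZT3 and spanned 1.21 (limma adjusted p = 0.281). Kdm5b, a demethylase of lysine 4, gave means of 9.55 ± 0.24 at ZT9 and 9.56 ± 0.19 at ZT15, against 9.11 ± 0.07 at ZT3 (SD, n = 3; limma F-test adjusted p = 0.289). Kdm5a, a demethylase that works with CLOCK and BMAL1, had means within 8.54 to 8.67 (limma adjusted p = 0.616). Its 4 probe sets each had a different highest time, with spans up to 0.42 and r down to -0.55 between them. Kdm5d, on the Y chromosome, gave means of 7.14 at ZT3 and 6.76 at ZT15 (limma F-test adjusted p = 0.339).

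The 4 class I deacetylases gave 0 calls of the F-test and 0 at an unadjusted p under 0.05 on their representative probe sets. Of the tested probe sets, 2.01% and 15.6% passed these, so 0 of 4 genes does not set the class apart. Hdac3, the catalytic subunit of the NCOR and SMRT corepressor complexes, went from 8.79 ± 0.06 (SD, n = 3) at ZT3 to 9.21 ± 0.07 at ZT21 (limma F-test adjusted p = 0.414), with 9.51 in ZT9 mouse 1 as its highest reading. Hdac1 and Hdac8 spanned 0.21 and 0.20, and Hdac2 spanned 0.09 (limma adjusted p = 0.571, 0.456 and 0.953). Another Hdac2 probe set had a span of 0.52 (limma F-test unadjusted p = 0.0130, adjusted p = 0.254).

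Of the 6 class II and IV deacetylases, 5 had their lowest mean at ZT3 on each of the 3 scales (26.0% to 39.4% of the tested probe sets), and 0 passed the F-test in limma. Hdac4, a signal-dependent deacetylase that shuttles between cytoplasm and nucleus in neurons, gave 7.55, 7.68 and 7.74 at ZT3, 7.97, 7.88 and 7.69 at ZT9, 7.97, 8.07 and 8.56 at ZT15 and 7.78, 7.80 and 8.20 at ZT21. ZT15 was above ZT3 and, by a margin under 0.01, above ZT9 in every mouse, with ZT15 mouse 3 the highest reading, and it overlapped with ZT21. The span was 0.54 (limma adjusted p = 0.306), and the second Hdac4 probe set, correlated with it at r = 0.87, spanned 0.46 (limma adjusted p = 0.395). Hdac11 gave 10.40 ± 0.08 (SD, n = 3) at ZT3 and means of 10.66 to 10.77 at the other times, with no overlap between ZT3 and the other 9 mice (limma F-test adjusted p = 0.335). Hdac9 spanned 0.48 (limma adjusted p = 0.386), but its second probe set was highest at ZT3 and correlated with the representative at r = -0.31. Hdac5, Hdac6 and Hdac7 spanned 0.25 to 0.33.

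The 5 sirtuins all had their lowest mean at ZT3, 4 of 5 with centred arrays and after quantile normalization, and 3 of 5 had an unadjusted p under 0.05. Of the tested probe sets, 39.4% were lowest at ZT3 (26.0% with centring and 27.8% after quantile normalization), and 15.6% had an unadjusted p under 0.05. Sirt1, a nuclear deacetylase that uses NAD, gave 7.65, 7.40 and 7.39 at ZT3, 8.23, 7.78 and 7.75 at ZT9, 7.94, 7.84 and 8.25 at ZT15 and 7.83, 7.85 and 7.99 at ZT21. The 3 mice of ZT3 lay below the other 9. ZT15 exceeded ZT3 by 0.53 ± 0.15 (SE; limma adjusted p = 0.176), and the F-test gave an adjusted p of 0.267. Sirt3, the main mitochondrial deacetylase, gave 9.71, 9.34 and 9.19 at ZT3, 9.83, 9.71 and 9.48 at ZT9, 9.81, 9.52 and 9.85 at ZT15 and 9.90, 9.98 and 10.06 at ZT21. It was highest in the mice of ZT21, all above the other 9, and spanned 0.57 (limma adjusted p = 0.265). Sirt7, a nucleolar deacetylase, was at 7.63 ± 0.21 (SD, n = 3) at ZT3 and at 8.06 to 8.12 at the other times (limma adjusted p = 0.304). Sirt2 and Sirt5 spanned 0.32 and 0.20.

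Of the 9 acetyltransferases 0 passed the F-test, and Ep300 and Kat2a had an unadjusted p under 0.05. Ep300, a broad coactivator, gave 8.57, 8.45 and 8.70 at ZT3, 9.05, 8.95 and 8.64 at ZT9, 8.93, 8.77 and 9.24 at ZT15 and 9.08, 9.04 and 9.18 at ZT21. ZT21 was above ZT3 in every mouse, and ZT3 overlapped with ZT9 mouse 3. The means went from 8.58 ± 0.12 (SD, n = 3) at ZT3 to 9.10 ± 0.07 at ZT21, a span of 0.52 (limma adjusted p = 0.263). Kat2a, the catalytic subunit of the SAGA and ATAC complexes, was below all other mice at ZT3, at 8.82 ± 0.14, and reached 9.33 ± 0.14 at ZT21 (limma adjusted p = 0.281). Kat5, the catalytic subunit of the TIP60 complex, spanned 0.23 and Kat2b 0.27 (limma adjusted p = 0.388 and 0.409). The other 5 spanned 0.16 to 0.36.

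**Figure D4:**
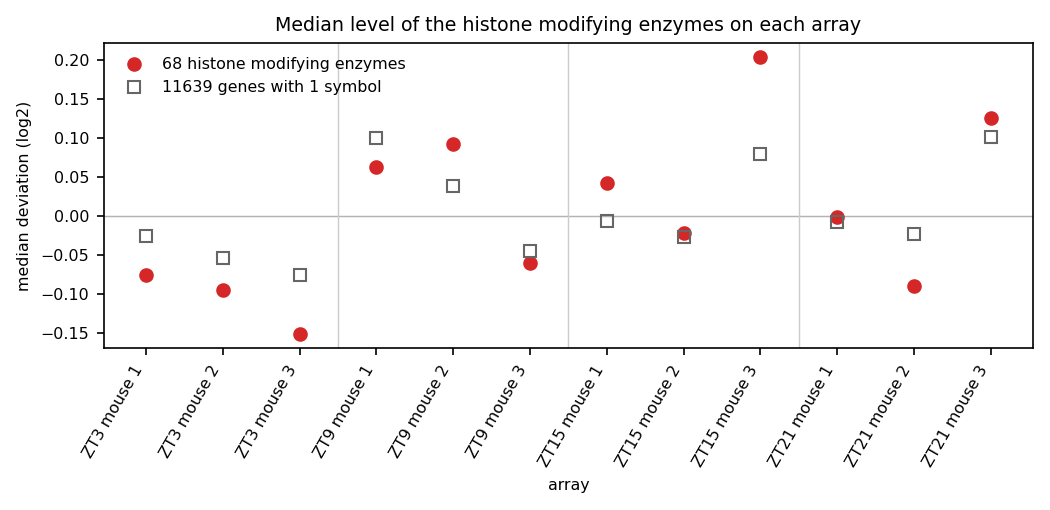
Median deviation (log2, vertical axis) of the 68 enzymes from their own means on each of the 12 arrays, filled circles, beside that of 11639 genes with 1 symbol, open squares. The enzymes were below 0 on all 3 arrays of ZT3 (-0.08 to -0.15) and highest on ZT15 mouse 3 (0.20). The genes as a whole ran from -0.08 to 0.10 and were also below 0 on the arrays of ZT3.

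The level of the enzymes as a group was low in all 3 mice of ZT3, as was that of all genes with 1 symbol, and mixed at the other times. The enzymes' median deviation was -0.08, -0.10 and -0.15 in the 3 mice of ZT3, 0.06, 0.09 and -0.06 at ZT9, 0.04, -0.02 and 0.20 at ZT15, and 0.00, -0.09 and 0.13 at ZT21. Each of the times after ZT3 held mice on both sides of 0. The median of all genes with 1 symbol ran from -0.08 to 0.10 over the same arrays and was -0.03, -0.05 and -0.08 in the mice of ZT3. Measured from that median, the enzymes were at -0.05, -0.04 and -0.08 in the mice of ZT3. The other 9 mice ran from -0.07 in ZT21 mouse 2 to 0.12 in ZT15 mouse 3. On ZT15 mouse 3, 8 of 68 enzymes were below their own mean, against 29 and 44 in the other 2 mice of that time. Kmt2a did not follow this: it was 9.73, 9.70 and 9.65 in the same 3 mice.

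Across the 12 arrays the enzymes most like the representative Kmt2a probe set were Kdm7a (r = 0.81), Kdm2a (0.77), Kat2b (0.73) and Hdac8 (0.69), and the median over the other members was 0.29. All arrays come from 4 times and share their normalization, so these values describe the 12 arrays. With the 3 arrays of ZT15 left out, r was 0.39 for Kdm7a, 0.01 for Kdm2a, 0.53 for Kat2b and 0.15 for Hdac8. For Kdm2a and Hdac8 the likeness thus lay in ZT15. Hdac8 lay just above the level set, at a mean of 5.05, and spanned 0.20. It read the same 5.05 in mice of all 4 times. ZT15 mice 2 and 3, at 5.26 and 5.23, were its only readings above that. Kat2b, an acetyltransferase of SAGA and ATAC, gave 8.45, 8.55, 8.72 and 8.51 as means of ZT3, ZT9, ZT15 and ZT21.

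**Figure D5:**
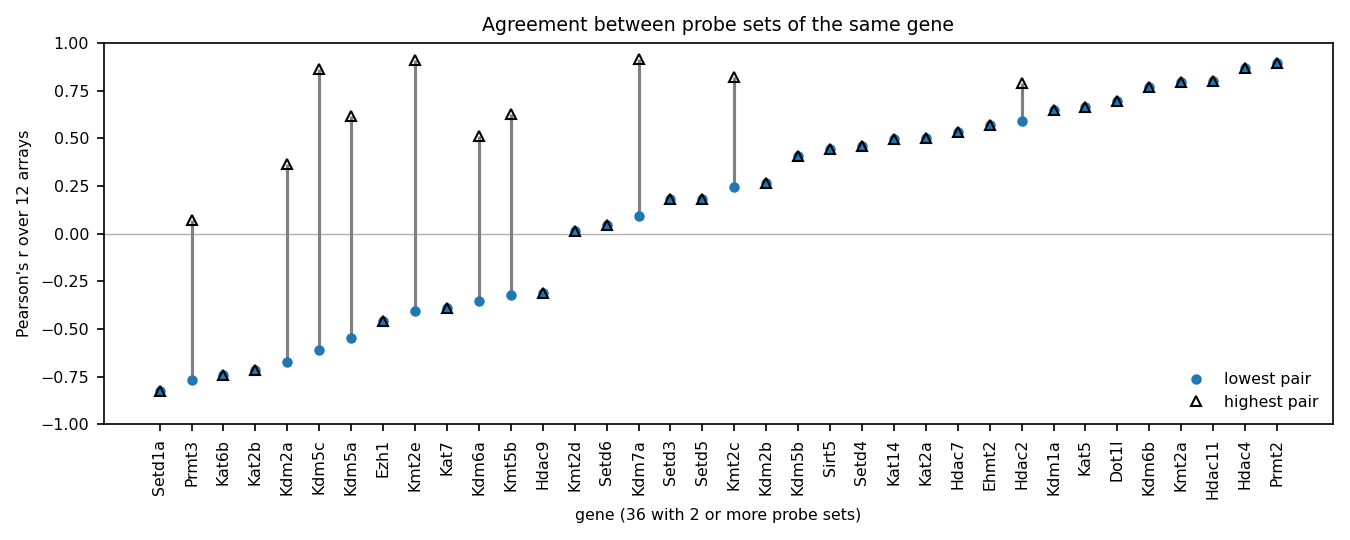
Lowest (filled) and highest (open) Pearson's r over 12 arrays (vertical axis) between probe sets of the same gene, for the 36 enzymes with 2 or more probe sets. The lowest r was below 0 for 13 genes, with Setd1a at -0.82, and reached 0.89 for Prmt2.

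Different probe sets of a gene often disagreed. Of the 36 enzymes with several probe sets at a mean log2 of at least 5, 8 had the same highest time in all, 23 had correlations above 0 throughout and 13 had a negative one. Agreement was best for Prmt2 (r = 0.89), Hdac4 (0.87), Hdac11 and Kmt2a (0.80), and the lowest values were -0.82 for Setd1a, -0.77 for Prmt3, -0.74 for Kat6b, -0.72 for Kat2b and -0.67 for Kdm2a. Setd1a shows the extent: its representative probe set was lowest at ZT3, at 7.07, and the other was highest there, at 6.36, against 5.89 to 5.98 at the other times. Of the 54 further probe sets, 2 passed the F-test, the second of Kmt2a and 1 of Kdm7a. That of Kmt2a is given as a description, and it no longer passed with no filter, without moderation, with the replicate number as a block or with any of 8 single arrays left out (all 3 of ZT3, ZT9 mouse 2, ZT15 mice 1 and 2, and ZT21 mice 1 and 2).

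Genes that work with these enzymes gave no call over the 4 times. A list of 106 genes held other histone modifying enzymes and subunits of the COMPASS and MLL, Polycomb, corepressor and acetyltransferase complexes, of which 98 were on the array and 96 measured. In limma 0 of 96 passed the F-test (2.01% of the tested probe sets), 17 (17.7%) had an unadjusted p under 0.05 (15.6% of the tested probe sets), and ordinary statistics called 1, Cxxc1, the CpG-binding subunit of the SETD1 complexes. By list, the unadjusted count was 3 of 13 COMPASS and MLL subunits, 3 of 9 PRC2 subunits, 5 of 24 corepressor subunits, 3 of 31 acetyltransferase complex subunits and 3 of 19 other enzymes. Their lowest mean was at ZT3 for 50 (52.1%, against 39.4% of the tested probe sets and 45.5% of genes with 1 symbol) and their highest at ZT15 for 29 (30.2%, against 24.3% and 23.8%).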

How the data were processed

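RNA of the prefrontal cortex of 12 mice was hybridised to Affymetrix Mouse430_v2 arrays. The authors deposited intensity values, obtained for each probe set by GCRMA within GeneSpring and not log-transformed, and filtered by MAS5 detection calls in their own work. Log2 of each value was used, and 0 values lay below a floor of 1. The 64 control probe sets were left out of the 45101. The 24075 probe sets with a mean log2 of at least 5 were tested, in place of the detection calls, which were not used here. Of the 45037 other probe sets, 34945 carry 1 gene symbol in the platform annotation, 932 carry several and 9160 none, and a gene was named only from a probe set with 1 symbol. All 68 enzymes matched the reference genes. No depth in reads exists for arrays, and the 3 mice per time point limit the precision.

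A model with 1 mean per time point was fitted to all 12 arrays by lmFit and eBayes of limma (version 3.58.1, R 4.3.3), giving a moderated F-test and two-sided contrasts. Adjustment was by Benjamini and Hochberg across the whole tested set, and calls were made at 0.20, the false discovery rate that the study's methods used. The code was tested on simulated data. Summaries used pandas 2.3.3 and numpy 2.4.6 under Python 3.11.15, and matplotlib 3.10.9 drew the figures. The members, the gene lists and the tests were chosen with earlier results of these data known. The text names Kmt2a, members past the F-test, the 3 members with the smallest p in each class, clock-linked members, the 4 members most like Kmt2a, and Per2. Other members are named where a count or a class is spelled out, after their values were seen. Alternatives were quantile normalization, median centring, other filters on dim probe sets, a robust prior with an intensity trend, no moderation, weights per array, a block for the replicate number, and each array left out.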

Additional observations from a re-analysis of the deposited data

How the results depend on the processing

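Calls at a threshold of 0.20 depended on the processing, for the enzymes and for the tested probe sets alike. The F-test count of 2 members (2.01% of the tested probe sets) became 8 after quantile normalization (9.30%), 6 with median centring (6.21%), 8 among the 15000 brightest probe sets (8.87%), 1 without moderation (0.328%), 48 with array weights (64.5%) and 19 with 3 arrays left out (ZT9 mouse 1, ZT15 mouse 3 and ZT21 mouse 3, chosen after seeing the data; 24.5%). The dark minus light count of 1 (2.72% of the tested probe sets in either direction) became 12, 7, 6, 0, 26 and 12 under the same settings in that order (12.1%, 9.58%, 9.95%, 0.345%, 33.1% and 17.2%). The ZT15 minus ZT3 count of 5 (2.64%) became 2 with no filter (0.597%), 8 among the brightest (4.81%), 2 without moderation (0.702%), 22 with weights (19.1%) and 3 with the 3 arrays left out (1.57%). The ZT21 minus ZT15 count of 1 (0.187%) became 21 with weights (31.4%) and 9 with the 3 arrays left out (19.2%). Of the 96 other chromatin genes, 0 became 10, 5, 9, 1, 67 and 24 in the same order as for the F-test, and 1 with no filter. The 46 enzymes lowest at ZT3 became 29 after quantile normalization and 28 with centring, alternatives added after seeing the data. The cause was not tested.

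With single arrays left out, the F-test count ran from 1 to 11 (11 without ZT9 mouse 1, 10 without ZT21 mouse 3, 9 without ZT9 mouse 3, 2 without ZT15 mouse 1 or 3, 1 otherwise), over 0.166% to 13.0% of the tested probe sets. The dark minus light count ran from 0 to 19 (19 without ZT9 mouse 1, 5 without ZT15 mouse 1, 2 without ZT3 mouse 1 or ZT21 mouse 3, 1 without ZT9 mouse 2, 0 otherwise), over 0.204% to 22.1%. The ZT15 minus ZT3 count ran from 0 to 9 (9 without ZT9 mouse 1, 8 without ZT21 mouse 3, 3 without ZT9 mouse 2, 1 without ZT3 mouse 3 or ZT15 mouse 3, 0 without ZT3 mouse 2), over 0.187% to 5.11%. The ZT21 minus ZT15 count ran from 0 to 6 (6 without ZT21 mouse 3, 0 without ZT15 mouse 1 or 2 or ZT21 mouse 1 or 2), over 0.0166% to 8.03%. The median dark minus light difference ran from 0.05 to 0.11, the other chromatin genes from 0 to 18 (13 without ZT9 mouse 1, 10 without ZT9 mouse 3, 5 without ZT15 mouse 3, 18 without ZT21 mouse 3) and the enzymes lowest at ZT3 from 36 to 49.

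The replicate numbers did not pair the mice: over 18 pairs of arrays with the same number, deviations from the group means correlated at -0.50 to 0.49 (median -0.09). With the replicate number as a block, the F-test count was 1, dark minus light 0, ZT15 minus ZT3 2 and ZT21 minus ZT15 0. Over 35 results for named probe sets and up to 21 alternatives each, 628 values stayed on their side of the threshold, 82 came under it and 22 left it, all with the direction unchanged. The 6 enzymes with a mean log2 under 5 were left out by that level and not tested among the members.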
